A study of Homo sapiens with 6 samples.

Results

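The enzymes that make serine, proline, asparagine and cysteine, together with 2 mitochondrial one-carbon enzymes, were followed in HCT116 cells in which CAPG was silenced. They were 10 genes of the 60643 in the table, taken by symbol: PHGDH, PSAT1 and PSPH of serine synthesis, SHMT2 and MTHFD2 of the mitochondrial folate pathway, ALDH18A1 and PYCR1 of proline synthesis, ASNS of asparagine synthesis, and CBS and CTH of cysteine synthesis. None of the symbols was repeated. HCT116 is an established human colorectal cancer line, and the cells had been transfected with a short hairpin against CAPG that doxycycline switches on. CAPG encodes an actin filament capping protein. The comparison was of 3 libraries from cells given 100 ng/µl doxycycline for 3 days (+Dox, labelled CAPG knockdown; unit as labelled) with 3 libraries from cells left untreated (-Dox, labelled WT), and all 6 came from cells with the same hairpin construct. The sources used here do not say whether the cells were 1 clone. Doxycycline without this hairpin was not analysed here, so the drug and the hairpin cannot be told apart. Nothing in the labels says that replicates were separate cultures, so p-values measure only how far these libraries vary, and that variation may be technical.

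Serine is built from the glycolytic intermediate 3-phosphoglycerate, and serine hydroxymethyltransferases pass one of its carbons to folate, which mitochondria convert to formate for nucleotide synthesis. Proline is made from glutamate through pyrroline-5-carboxylate, asparagine from aspartate and glutamine, and cysteine from homocysteine and serine by transsulfuration. Many of these genes carry sites for ATF4, the transcription factor whose translation rises in the integrated stress response, when amino acids run short or the endoplasmic reticulum is stressed. Proliferating tumour cells, colorectal ones included, commonly express the serine and mitochondrial folate enzymes at high levels.

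The values carry no named unit and were treated as FPKM (fragments per kilobase of transcript, scaled to library size), which estimate a transcript's level. CAPG was at 8.18, 8.03 and 9.97 FPKM in +Dox replicates 1, 2 and 3, against 61.1, 56.9 and 53.7 FPKM in -Dox replicates 1, 2 and 3, so the labels held in every library. The estimated depth was 17800000 to 18100000 fragments in +Dox libraries and 14100000 to 17800000 in -Dox libraries. FPKM summed to 586911 in +Dox replicate 3 and to between 521832 and 536037 in the others. The same library stood apart from the other +Dox libraries, with a score of -17.19 against 12.24 and 13.05 on the component that held 21% of the variance, the second. On that component -Dox replicate 1 scored -14.05, and -Dox replicates 2 and 3 scored -2.6 and 8.55. Of 9 colon epithelium markers, 7 averaged at least 1 FPKM, with sums of 1941 to 2289 FPKM in +Dox and 1738 to 1960 FPKM in -Dox libraries, while VIL1 (villin) and LGALS4 (galectin-4) were below 1 FPKM in every library. Fibroblast markers summed to 7.58 to 9.80 FPKM in +Dox and 7.97 to 11.3 FPKM in -Dox, nearly all of it COL1A1, with COL1A2 and DCN at 0 in all 6 libraries. Leukocyte markers summed to 2.59 to 2.77 FPKM in +Dox and 4.40 to 5.17 FPKM in -Dox, mostly CD68, with CD3E at 0. CD68 fell (log2 -0.72, limma adjusted p = 0.0167) and EPCAM, an epithelial marker, rose (0.34, 0.0401), and the part of either in the results was not tested. Endothelial markers summed to 0.177 to 0.574 FPKM in +Dox and 0.195 to 0.246 FPKM in -Dox, and hepatocyte markers to 0.0836 to 0.538 FPKM in +Dox and 0.170 to 0.801 FPKM in -Dox. In bulk RNA, fewer cells of a type and less RNA per cell cannot be told apart.

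Upstream sequences are shown for 4 of these genes, to set the letters of known regulatory motifs beside the levels: ASNS and PSAT1, which rose, and CTH and ALDH18A1, which stood lower. Each is the 250 bases before the RefSeq gene start on GRCh38.p14, 5′ to 3′ on the gene's strand, from RefSeq, with motif matches in capitals. ASNS, in which the capitals mark TGATGAAA, is at chr7:97872409-97872658 on the minus strand. PSAT1, with 3 CCAAT boxes, is at chr9:78296875-78297124 on the plus strand. ALDH18A1, with CACGTG, is at chr10:95656712-95656961 on the minus strand, and CTH, with 1 CCAAT box, is at chr1:70411018-70411267 on the plus strand.
ASNS: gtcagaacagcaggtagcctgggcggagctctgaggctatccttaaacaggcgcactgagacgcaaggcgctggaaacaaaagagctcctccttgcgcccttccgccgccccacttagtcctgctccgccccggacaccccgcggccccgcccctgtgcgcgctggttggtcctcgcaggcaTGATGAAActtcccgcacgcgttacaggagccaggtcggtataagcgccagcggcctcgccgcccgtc
PSAT1: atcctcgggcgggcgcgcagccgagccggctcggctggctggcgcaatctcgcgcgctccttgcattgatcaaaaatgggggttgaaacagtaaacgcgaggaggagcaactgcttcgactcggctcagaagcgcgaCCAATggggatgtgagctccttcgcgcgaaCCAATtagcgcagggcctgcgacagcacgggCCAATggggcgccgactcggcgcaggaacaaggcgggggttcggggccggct
ALDH18A1: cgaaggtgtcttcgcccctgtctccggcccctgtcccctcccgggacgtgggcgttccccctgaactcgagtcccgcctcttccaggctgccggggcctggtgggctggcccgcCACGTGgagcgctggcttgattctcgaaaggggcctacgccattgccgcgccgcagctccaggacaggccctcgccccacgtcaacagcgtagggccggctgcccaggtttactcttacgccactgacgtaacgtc
CTH: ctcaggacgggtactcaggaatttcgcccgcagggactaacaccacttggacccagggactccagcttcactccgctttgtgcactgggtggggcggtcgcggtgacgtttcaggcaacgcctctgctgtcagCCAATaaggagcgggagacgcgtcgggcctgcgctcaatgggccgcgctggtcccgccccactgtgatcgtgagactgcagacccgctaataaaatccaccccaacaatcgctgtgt

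The letters searched, on both strands, were TGATGNAA, the core of the composite C/EBP and ATF4 element, CACGTG, the E-box bound by MYC and other factors, and CCAAT, which NF-Y binds and which was added after the sequences had been read. No match of 1 motif overlapped another in the members. A promoter was found for 7 of the 10 genes, and PSPH, SHMT2 and PYCR1 were not searched. TGATGNAA was in 3.14% of all 35116 promoter windows of this length. Among the members it was found in ASNS alone, as TGATGAAA at positions -68 to -61 from the gene start, and a second RefSeq start of ASNS did not hold it. CACGTG was in 6.34% of windows and, among the members, in ALDH18A1 at -136 to -131. CCAAT was in 32% of windows at least once and in 2.93% at least 3 times. PSAT1 held it at -113, -83 and -52, MTHFD2 at -184 and -74, PHGDH at -71 and CTH at -117, and CBS held up to 2 in its RefSeq starts. These are matches of letters in a window and were not set against binding data.

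MTHFD2 was the most abundant of the 10 genes and CBS the least, and the order in between differed between the groups. Averaged over the 6 libraries, MTHFD2 was at 201.8 FPKM, followed by PHGDH (110.4), SHMT2 (109.1), ASNS (90.5), PSAT1 (63.0), PYCR1 (62.9), ALDH18A1 (30.5), PSPH (21.8) and CTH (7.59). MTHFD2 stood above 97.4% of the 14475 genes tested, and CTH above 41.4%. PHGDH and SHMT2 were close neighbours, at 119 ± 9.59 and 109 ± 6.60 FPKM in +Dox and at 101.5 ± 11.8 and 109.5 ± 4.42 FPKM in -Dox (SD, n = 3 each). PHGDH was above SHMT2 in all 3 +Dox libraries and below it in all 3 -Dox libraries. In all 3 +Dox libraries the order after them was ASNS, PSAT1, PYCR1. In all 3 -Dox libraries PSAT1 came below PYCR1, and PYCR1 was above ASNS in replicate 1 and below it in replicates 2 and 3. From ALDH18A1 down, the order was the same in every library.

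**Figure D1:**
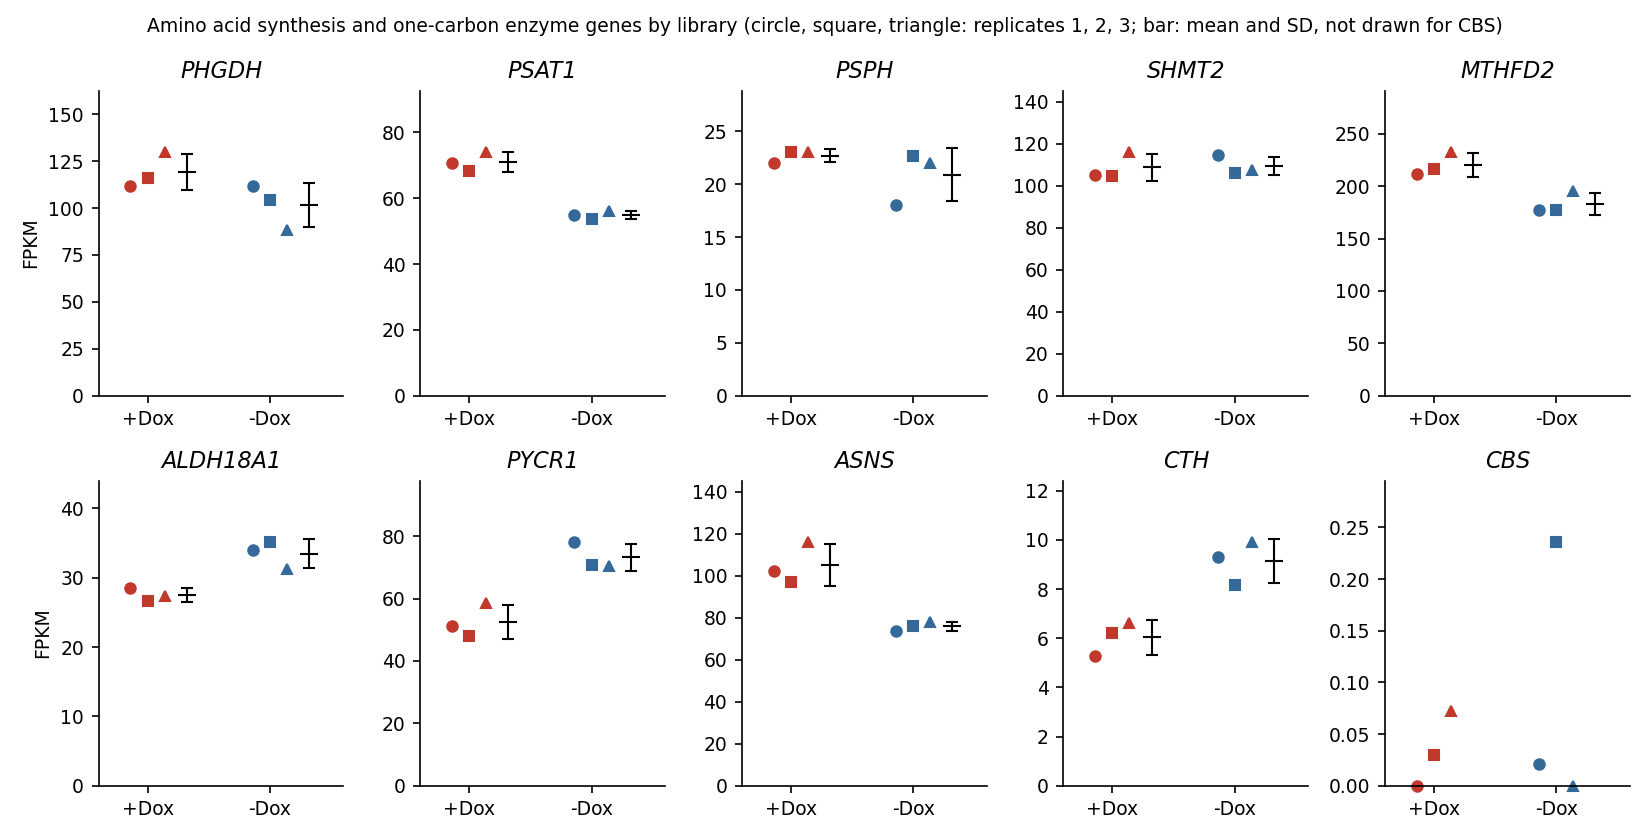
FPKM of the 10 genes in each library, with +Dox libraries (red) left of -Dox libraries (blue), replicates 1, 2 and 3 as circle, square and triangle, and a bar for the mean and SD. The 2 groups do not overlap in PSAT1, MTHFD2 and ASNS, which are higher in +Dox, and in ALDH18A1, PYCR1 and CTH, which are lower.

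Of the 10 genes 9 passed the filter for testing (at least 1 FPKM in at least 3 libraries), and the listed values of CBS did not. By limma on log2(FPKM + 1), with p adjusted over all 14475 genes and a threshold of 0.05, PSAT1 and ASNS rose, PYCR1 and CTH fell, and PHGDH, PSPH, SHMT2, MTHFD2 and ALDH18A1 did not pass. Among all genes tested 8.46% were called (3.69% higher and 4.77% lower), or 1291 higher and 1050 lower after correction for transcript length and GC content in place of 534 and 691. The groups did not overlap in 3 genes that were higher and 3 that were lower, against 34.5% of all genes tested. At an unadjusted p under 0.05 there were 7 of the 9, against 27.9% of all genes tested. The median log2 change was 0.12 over the 9 genes and -0.003 over all genes tested. With no filter on low values none of the 9 was called (limma adjusted p = 0.0693 for PSAT1, 0.0777 for ASNS, 0.0904 for PYCR1 and 0.105 for CTH), and 6 had an unadjusted p under 0.05, those 4 with MTHFD2 and ALDH18A1. The number called depended on the libraries: without +Dox replicates 1, 2 and 3 it was 1, 1 and 2 higher and 0, 0 and 2 lower, and without -Dox replicates 1, 2 and 3 it was 0, 0 and 2 higher and 0, 0 and 1 lower. Calls over all 14475 genes dropped too, from 1225 to 613, 388 and 1000 without +Dox replicates 1, 2 and 3. They numbered 505, 223 and 672 without -Dox replicates 1, 2 and 3, and 153 of 32367 genes with no filter. The exact permutation p of a gene whose groups did not overlap was 0.1, two-sided, and no lower value is possible with 3 libraries on each side.

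**Figure D2:**
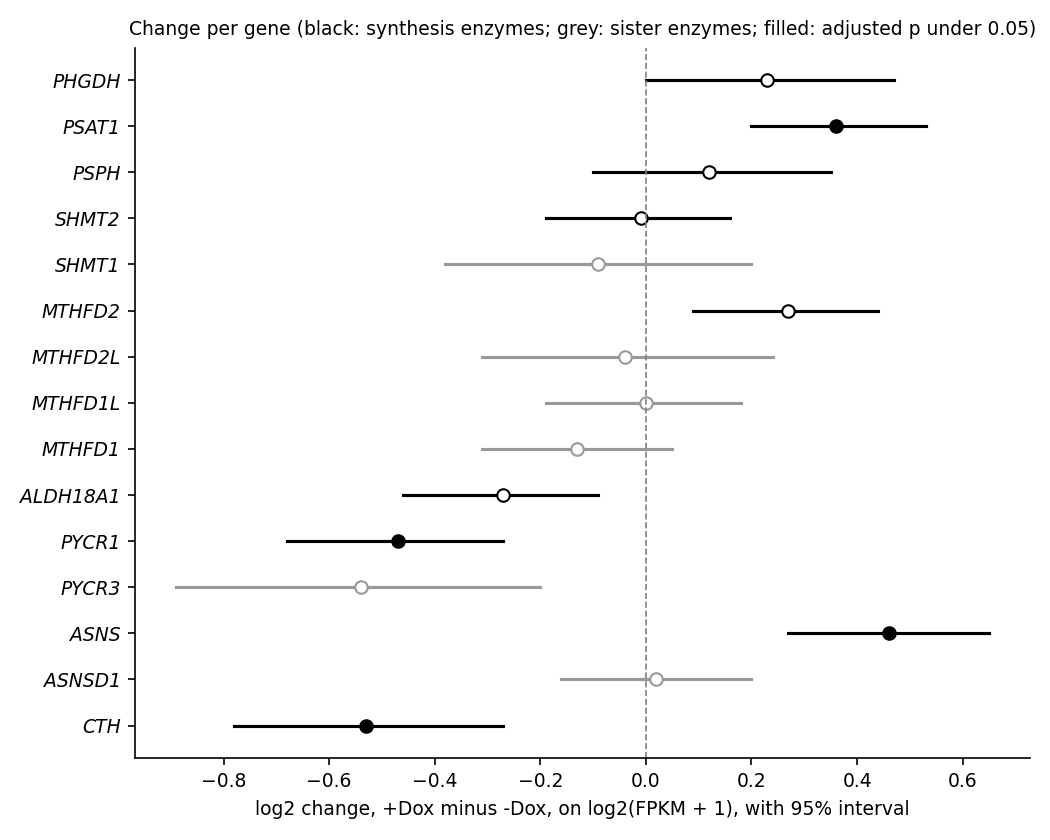
Log2 change (+Dox minus -Dox, on log2(FPKM + 1)) with its 95% interval for the 9 tested genes (black) and for sister enzymes (grey), filled where the limma adjusted p was under 0.05. ASNS (0.46) and PSAT1 (0.36) lie to the right of 0 and PYCR1 (-0.47) and CTH (-0.53) to the left, while the interval of SHMT2 (-0.19 to 0.16) includes 0.

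In serine synthesis the middle enzyme rose, and the first and last had smaller differences that did not pass. PSAT1 (chromosome 9, 78297125 to 78330093), the phosphoserine aminotransferase that uses glutamate as its amino donor, was at 70.8, 68.2 and 74.2 FPKM in +Dox, against 54.9, 53.8 and 56.2 FPKM in -Dox replicates 1, 2 and 3. Every +Dox library was above every -Dox library, and the -Dox libraries lay close together. The ratio of the means was 1.29, and the log2 change was 0.36 (SE 0.07, limma adjusted p = 0.0215). The call was lost without +Dox replicate 1 (0.0605) or 2 (0.06) and without -Dox replicate 1 (0.0582) or 2 (0.108), with log2 changes between 0.29 and 0.39 over all settings.

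PHGDH (chromosome 1, 119648411 to 119744218), the dehydrogenase of the committed first step, was at 112, 116 and 130 FPKM in +Dox, against 112, 104 and 88.5 FPKM in -Dox. The groups met at their edges, with the same listed value in replicate 1 of both, and the -Dox libraries were spread more widely. The log2 change was 0.23 (95% interval 0.00 to 0.47, limma adjusted p = 0.172), and it passed with the length and GC correction (0.0448). PSPH (chromosome 7, 56011051 to 56051604), the phosphatase that releases free serine, was at 22.0, 23.1 and 23.0 FPKM in +Dox, against 18.0, 22.7 and 22.0 FPKM in -Dox. Only -Dox replicate 1 was low, and the log2 change was 0.12 (95% interval -0.10 to 0.35, adjusted p = 0.467). Within libraries the log2 ratio of PSAT1 to PHGDH was -0.74 ± 0.08 in +Dox and -0.87 ± 0.19 in -Dox (exact permutation p = 0.4), and that of PSPH to PHGDH was -2.34 ± 0.09 in +Dox and -2.23 ± 0.31 in -Dox (exact p = 0.5; SD, n = 3 each), so neither ratio differed beyond the spread between libraries.

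Among other genes of serine and glycine metabolism none passed. Of 14 tested genes in that list 1 rose, PSAT1 itself, and 0 fell (median log2 change -0.08), against 3.69% and 4.77% of all genes tested. SDS, serine dehydratase, was below the filter. SHMT1, the cytosolic hydroxymethyltransferase, was at 19.2 ± 1.79 FPKM in +Dox and 20.7 ± 3.63 FPKM in -Dox. PSAT1 was lost from the count without +Dox replicates 1 and 2 and -Dox replicates 1 and 2, as above.

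Of the 2 mitochondrial folate enzymes, MTHFD2 was higher in every +Dox library and SHMT2 was not. MTHFD2 (chromosome 2, 74198610 to 74217565), the methylenetetrahydrofolate dehydrogenase and cyclohydrolase, was at 212, 216 and 233 FPKM in +Dox, against 177, 177 and 196 FPKM in -Dox. The groups did not overlap, and the ratio of the means was 1.20. The log2 change was 0.27 (SE 0.08, 95% interval 0.09 to 0.44), which did not pass (limma adjusted p = 0.0696) except with transcript length and GC content corrected for (0.0307). SHMT2 (chromosome 12, 57229573 to 57234935), which splits serine into glycine and a folate-bound carbon one step upstream, was at 105, 105 and 116 FPKM in +Dox, against 114.5, 106 and 108 FPKM in -Dox. The groups overlapped throughout (log2 change -0.01, 95% interval -0.19 to 0.16, adjusted p = 0.94), and the sign turned in 4 of the 15 other settings.

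Ratios within a library do not depend on how libraries were scaled. The log2 ratio of MTHFD2 to SHMT2 was 1.0, 1.04 and 1.0 in +Dox, against 0.62, 0.73 and 0.86 in -Dox replicates 1, 2 and 3. All +Dox libraries were above all -Dox libraries, by 0.28 on average (exact permutation p = 0.1, the smallest possible, or 0.18 adjusted over the 9 ratios computed). The ratio of MTHFD2 to MTHFD1, the cytosolic trifunctional enzyme, was also higher in +Dox, at 2.40 ± 0.08 against 2.0 ± 0.14 in -Dox (difference 0.40, exact p = 0.1, adjusted 0.18). MTHFD1 itself was at 41.05 ± 1.96 FPKM in +Dox and 45.1 ± 2.42 FPKM in -Dox (limma adjusted p = 0.31). The ratio of SHMT2 to SHMT1 was 2.44 ± 0.05 in +Dox and 2.36 ± 0.22 in -Dox (exact p = 0.5).

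**Figure D3:**
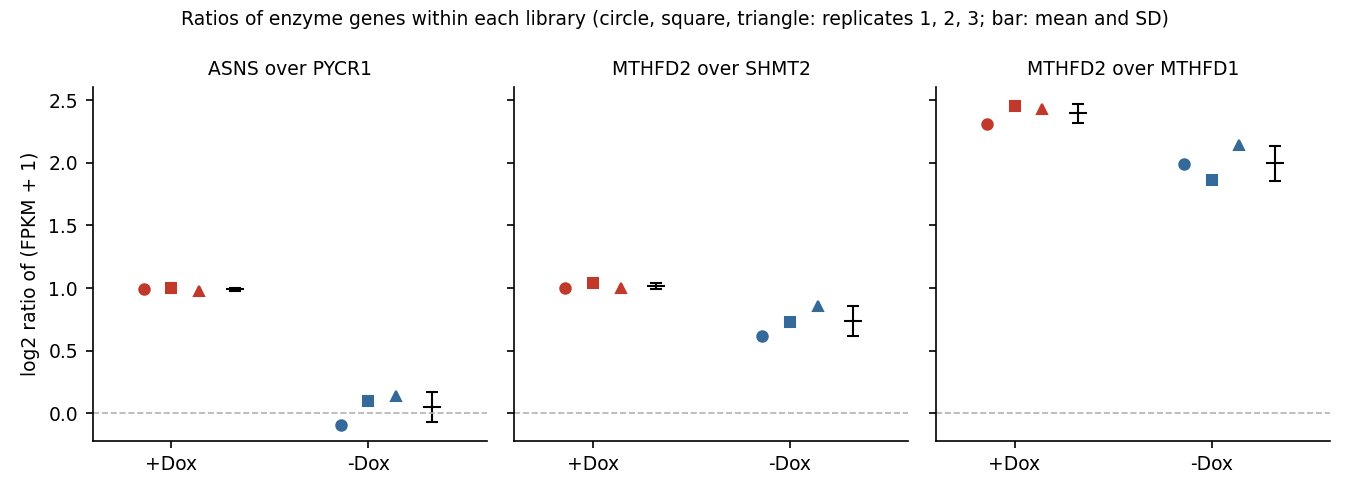
Log2 ratio of (FPKM + 1) of ASNS to PYCR1, MTHFD2 to SHMT2 and MTHFD2 to MTHFD1 within each library, with +Dox (red) left of -Dox (blue) and a bar for the mean and SD of 3 libraries. The ratio of ASNS to PYCR1 was 0.98 to 1.0 in +Dox and -0.09 to 0.14 in -Dox, and the groups do not overlap in the plots of MTHFD2 to SHMT2 and MTHFD2 to MTHFD1 either. These pairs were drawn because their groups do not overlap, and the groups overlap in 4 other ratios, which are given in the text.

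The paralogues of MTHFD2 had similar values in both groups. MTHFD2L, the second mitochondrial dehydrogenase, was at 5.85 ± 0.623 FPKM in +Dox and 6.04 ± 0.878 FPKM in -Dox, and MTHFD1L, the mitochondrial formate-releasing ligase, at 28.6 ± 1.81 FPKM in +Dox and 28.6 ± 1.085 FPKM in -Dox (limma adjusted p = 0.883 and 0.982). Of 16 tested genes of folate one-carbon metabolism 1 rose and 1 fell (median 0.00), against 3.69% and 4.77% of all genes tested. The gene that rose was MTHFS, which returns 5-formyltetrahydrofolate to the pool. It rose to 9.47 ± 0.865 FPKM, against 6.785 ± 0.746 FPKM in -Dox (log2 0.43, adjusted p = 0.0436). It was not called in any of the 6 leave-one-out fits, with 0.0636, 0.105 and 0.0903 without +Dox replicates 1, 2 and 3 and 0.107, 0.0842 and 0.0948 without -Dox replicates 1, 2 and 3. ALDH1L1, ALDH1L2 and FTCD were below the filter.

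Both enzymes of proline synthesis stood lower with doxycycline. PYCR1 (chromosome 17, 81932384 to 81942412), the mitochondrial reductase of the last step, was at 51.1, 48.0 and 58.5 FPKM in +Dox, against 78.3, 70.9 and 70.4 FPKM in -Dox. All +Dox libraries were lower, and the gap between the groups was wider than either group's range. It fell by 0.47 on the log2 scale (SE 0.09, limma adjusted p = 0.0201), to 0.717 of the level without doxycycline. The call was lost without +Dox replicate 1 (0.0523) or 2 (0.0676) and without -Dox replicate 1 (0.0623) or 2 (0.0742). ALDH18A1 (chromosome 10, 95605941 to 95656711), the synthase that turns glutamate into pyrroline-5-carboxylate, was at 28.5, 26.6 and 27.35 FPKM in +Dox, against 34.0, 35.2 and 31.2 FPKM in -Dox. The groups did not overlap. The log2 change of -0.27 (SE 0.08) did not pass (adjusted p = 0.0674), and it passed with equal library totals (0.0438), with quantile normalization (0.0431) and with length and GC content corrected for (0.0293).

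PYCR3, the cytosolic paralogue of PYCR1, was low in both groups, at 1.37 ± 0.173 FPKM in +Dox and 2.49 ± 0.617 FPKM in -Dox (log2 -0.54, limma adjusted p = 0.0588, and 0.0333 without -Dox replicate 3). The ratio of ALDH18A1 to PYCR1 was -0.90 ± 0.14 in +Dox and -1.11 ± 0.10 in -Dox, with overlapping groups (exact p = 0.2).

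Of 11 tested genes of proline and glutamate metabolism 3 fell and 0 rose (median -0.27), against 4.77% and 3.69% of all genes tested. Besides PYCR1 these were GLUL, glutamine synthetase (92.0 ± 2.73 FPKM in +Dox and 125 ± 11.04 FPKM in -Dox, log2 -0.44, limma adjusted p = 0.019), and ALDH4A1, which degrades proline-derived pyrroline-5-carboxylate to glutamate (3.37 ± 0.0991 FPKM in +Dox and 4.90 ± 0.273 FPKM in -Dox, log2 -0.43, adjusted p = 0.031). GLUL lost its call without +Dox replicate 2 (0.0587) and -Dox replicates 1 (0.0593) and 2 (0.0909). ALDH4A1 lost it without +Dox replicates 1 (0.0756) and 2 (0.103) and -Dox replicates 1 (0.08) and 2 (0.126). Calls of lower genes in this group numbered 1, 0 and 3 without +Dox replicates 1, 2 and 3 and 0, 0 and 4 without -Dox replicates 1, 2 and 3, and 5 with equal library totals. PRODH2, ARG1 and GLS2 were below the filter.

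ASNS rose, with the highest log2 change of the 9 tested genes. ASNS (chromosome 7, 97851677 to 97872542), which transfers the amide of glutamine to aspartate and whose promoter held the TGATGAAA shown above, was at 102, 96.75 and 116 FPKM in +Dox, against 73.7, 76.1 and 77.85 FPKM in -Dox. The lowest +Dox library was well above the highest -Dox library. The ratio of the means was 1.38, and the log2 change was 0.46 (SE 0.09, 95% interval 0.27 to 0.65, limma adjusted p = 0.0173). The call was lost without -Dox replicate 1 (0.0572) or 2 (0.0789). ASNSD1, an asparagine synthetase domain protein, was at 20.4 ± 0.5265 FPKM in +Dox and 20.1 ± 0.585 FPKM in -Dox (adjusted p = 0.898).

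ASNS and PYCR1 were apart in cells with doxycycline and close to each other in cells without it. Their log2 ratio was 0.99, 1.0 and 0.98 in +Dox, against -0.09, 0.10 and 0.14 in -Dox. The difference of 0.93 is a description with no test, since the pair sets the gene with the highest positive change against one that fell. Among 7 tested genes of asparagine and aspartate metabolism 2 rose and 0 fell (median 0.10), against 3.69% and 4.77% of all genes tested. The other was GOT1, the cytosolic aspartate aminotransferase, at 73.5 ± 7.57 FPKM in +Dox and 57.3 ± 1.61 FPKM in -Dox (log2 0.35, limma adjusted p = 0.0433). It passed in none of the 6 leave-one-out fits (0.0513, 0.0987 and 0.0507 without +Dox replicates 1, 2 and 3, and 0.0831, 0.151 and 0.0996 without -Dox replicates 1, 2 and 3). ASPG and ASPA were below the filter.

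Of the 2 transsulfuration enzymes, CTH fell and CBS was barely listed. CTH (chromosome 1, 70411218 to 70439851), cystathionine gamma-lyase, which releases cysteine, was at 5.265, 6.20 and 6.64 FPKM in +Dox, against 9.32, 8.16 and 9.93 FPKM in -Dox. The groups did not overlap, and CTH fell to 0.661 of its level without doxycycline (log2 -0.53, SE 0.11, limma adjusted p = 0.0258). The call was lost without +Dox replicate 1 (0.0736) or 2 (0.0646) and without -Dox replicate 1 (0.0713), 2 (0.0603) or 3 (0.0709), with log2 changes of -0.60 to -0.45 over all settings. CBS (chromosome 21, 43053191 to 43076943), cystathionine beta-synthase, which joins homocysteine to serine, was listed at 0, 0.0296 and 0.0718 FPKM in +Dox, against 0.0209, 0.236 and 0 FPKM in -Dox, and no fold is given. For a transcript of 1 kb, 3 fragments correspond to 0.166 to 0.213 FPKM in these libraries, a limit that covers counting error only. The GRCh38 annotation holds a near-identical copy, CBSL, which was listed at 0 to 0.0577 FPKM in +Dox and 0 to 0.110 FPKM in -Dox, so the copy was near 0 as well. Whether these values reflect the cells or the estimation was not tested. U2AF1 and U2AF1L5, another such pair on chromosome 21, were listed at 81.3 to 93.6 FPKM in +Dox and at 68.3 to 78.7 FPKM in -Dox.

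Of 15 tested genes of methionine and cysteine metabolism 0 rose and 3 fell (median -0.06), against 3.69% and 4.77% of all genes tested. Besides CTH these were MTR, methionine synthase (5.59 ± 0.617 FPKM in +Dox and 8.001 ± 0.295 FPKM in -Dox, log2 -0.45, limma adjusted p = 0.0309), and MTAP, which salvages methylthioadenosine (98.0 ± 3.90 FPKM in +Dox and 126 ± 10.3 FPKM in -Dox, log2 -0.36, adjusted p = 0.0329). MTR lost its call without +Dox replicates 2 (0.0787) and 3 (0.0554) and -Dox replicates 1 (0.0627), 2 (0.119) and 3 (0.0728). MTAP lost it without +Dox replicates 1 (0.0756) and 2 (0.0802) and -Dox replicates 2 (0.124) and 3 (0.0863). CBS, CBSL, MAT1A, BHMT, BHMT2, CDO1 and GNMT were below the filter.

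The list of regulators, which holds DDIT3 and TRIB3 and is not confined to genes upstream of the enzymes, included both directions. ATF4, to which several of these genes respond, was at 324, 331.5 and 361 FPKM in +Dox, against 296, 259 and 254 FPKM in -Dox (log2 0.33, limma adjusted p = 0.0479). None of the 6 leave-one-out fits called it (0.0781, 0.111 and 0.061 without +Dox replicates 1, 2 and 3, and 0.0559, 0.186 and 0.129 without -Dox replicates 1, 2 and 3). MYC, which also binds promoters of serine and proline synthesis genes, fell to 58.8, 57.1 and 64.3 FPKM in +Dox, against 99.6, 94.5 and 91.8 FPKM in -Dox (log2 -0.66, adjusted p = 0.00302), with a call in every such fit. Of 16 tested regulators 7 rose and 1 fell (median 0.26), against 3.69% and 4.77% of all genes tested. The regulators with the smallest p were PPP1R15B, an eIF2α phosphatase subunit (log2 0.75), DDIT3 (1.05), MYC and TRIB3 (0.74). Those called higher numbered 6, 3 and 4 without +Dox replicates 1, 2 and 3 and 4, 3 and 3 without -Dox replicates 1, 2 and 3.

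The genes that share ATF4 as a regulator but make no amino acid were counted in the same way, without those already in the list of regulators. Of 15 other tested ATF4 targets 4 rose and 1 fell (median 0.22), against 3.69% and 4.77% of all genes tested. CHAC1 (log2 1.31), SARS1 (0.49) and HERPUD1 (0.49) were among the targets that rose, and DDIT4 (-0.57) fell. Without -Dox replicate 2 the number called higher was 1, and SARS1 (limma adjusted p = 0.0559) and HERPUD1 (0.0559) lost their calls. Of 10 tested amino acid transporters SLC3A2 (log2 0.50) and SLC7A11 (0.61) rose and 0 fell (median 0.19), against 3.69% and 4.77% of all genes tested. Without -Dox replicate 2 neither was called (0.051 and 0.0894), and without +Dox replicates 1 (0.0583) and 2 (0.0683) and -Dox replicate 1 (0.0656) SLC7A11 was not. VLDLR and NUPR1 were below the filter. With no filter on low values, MYC, PPP1R15B, DDIT3, CHAC1 and SARS1 kept their calls, and the other genes named from the lists did not (adjusted p = 0.0506 for DDIT4, 0.0516 for SLC3A2, 0.0524 for HERPUD1, 0.0559 for TRIB3, and 0.078 to 0.138 for GLUL, ALDH4A1, MTR, SLC7A11, MTAP, MTHFS, GOT1 and ATF4). Plain empirical Bayes also ended the calls of MTHFS (0.0537), MTAP (0.06), GOT1 (0.0721) and ATF4 (0.0793), equal library totals that of MTHFS (0.0563), and quantile normalization that of ATF4 (0.0646).

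Genes with a course like that of 1 enzyme per amino acid were sought over the 6 libraries, by the root mean square difference of centred log2(FPKM + 1), among genes averaging at least 10 FPKM. Among the closest to PHGDH were CIAO2B (0.020) and MAP2K2 (0.026). PYCR1 was followed most closely by SLCO4A1 (0.021), LAMB1 (0.044) and MAGEF1 (0.046). For ASNS they were HSPA4 (0.024), MRPS28 (0.038) and HOXA9 (0.041), and among those closest to CTH were AP1S2 (0.071) and SEL1L3 (0.082). Only the 3 closest of 7122 candidates were kept per enzyme, and CTH and CBS, which averaged under 10 FPKM, were not candidates. None of the other enzymes studied here was among those kept, which does not show whether the enzymes moved together.

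Overlapping annotation was small beside the members' levels, and the sources used here do not say whether the reads kept their strand. ASNS shares 1985 exonic bases with AC079781.5 on the same strand, listed at 3.14 to 3.69 FPKM in +Dox and 2.94 to 3.91 FPKM in -Dox. MTHFD2 shares 1324 with SLC4A5 on the opposite strand, listed at 0.557 to 0.939 FPKM in +Dox and 0.945 to 1.85 FPKM in -Dox. Pseudogenes named after members were at most at 1.26 FPKM (MTHFD2P7), while all those of PSPH and most of those of MTHFD2 and ASNS were listed at 0.

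**Figure D4:**
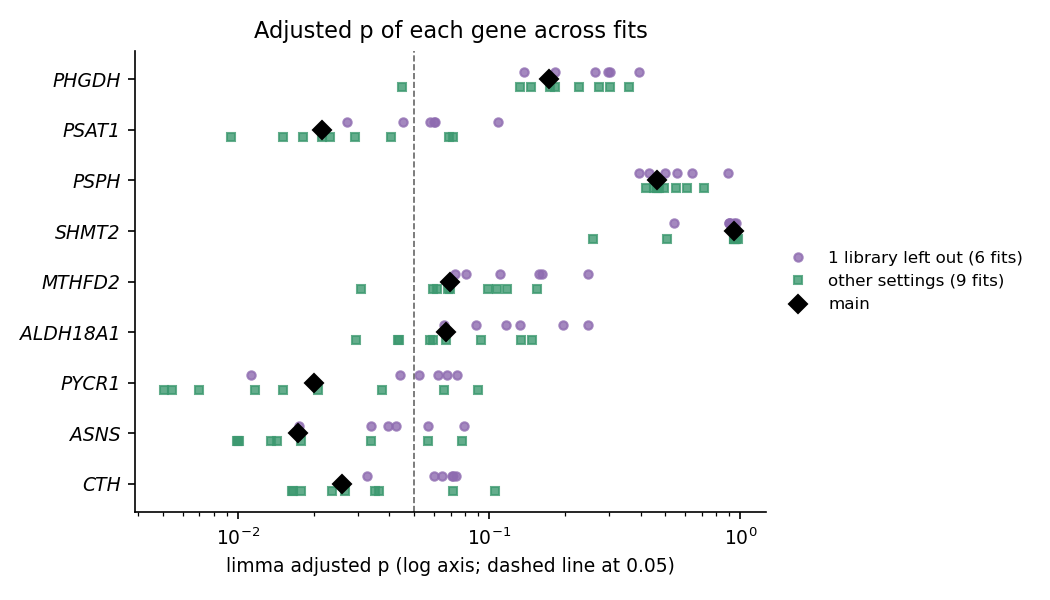
Limma adjusted p (log axis) of the 9 tested genes in the main fit (diamond), in 6 fits that each left out a library (circles) and under 9 other settings (squares), with a dashed line at 0.05. ASNS stayed under the line in 4 of the 6 leave-one-out fits, PSAT1 and PYCR1 in 2 each and CTH in 1, while PSPH and SHMT2 stayed above it throughout.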

How the data were processed

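RNA sequencing libraries of HCT116 cells (3 +Dox, 3 -Dox) were prepared from total RNA extracted with TRIzol, per the labels' protocols. The authors' deposited table gives 1 value per gene and library with an Ensembl identifier, symbol and locus. Its header names no unit. The deposited values were treated as FPKM because they are not whole, do not sum to a fixed total and, in low single-exon genes, move in steps that scale with length. Per the submitters' processing notes, the tools were STAR, RSEM, kallisto, Cufflinks, BWA and Bowtie, with neither roles nor versions, and the build was hg19. The table's loci match GRCh38 once 1 is added to each start (39321 of 39331 identifiers found in GENCODE 29), and are printed counted from 1.

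The 14475 genes that reached 1 FPKM in 3 or more libraries entered a limma fit (version 3.58.1, R 4.3.3) of log2(FPKM + 1) (trended, robust empirical Bayes, two-sided, Benjamini-Hochberg over all genes tested). This scale understates the change of low genes. The fit was tested on simulated data. Ratios were tested by exact permutation (SciPy 1.17.1), two-sided. Depth was estimated from 3640 single-exon genes over 1000 bases, where 1 fragment gives a fixed step, and the floor is 3 fragments. The members, gene lists, rule for named genes and tests were chosen with earlier results of these data known. Named were all members, CAPG, sister enzymes, ATF4, up to 4 called genes per list with the smallest p, and for PHGDH, PYCR1, ASNS and CTH those among the 3 most similar genes. Results for some genes that this rule names are not reported here. Clone-named, LINC and antisense genes were left out of that search. The lists were serine and glycine, folate one-carbon, proline and glutamate, asparagine and aspartate, methionine and cysteine, regulators, transporters, other ATF4 targets, and markers of 5 cell types. Because the values are not whole, the plan's branch for counts was not used. Alternatives were another pseudocount, 2 filters, 3 scalings, a length and GC correction, plain empirical Bayes, a replicate block and leaving out each library.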

Additional observations from a re-analysis of the deposited data

How the results depend on the processing

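Directions of the 9 tested genes held in all 15 other settings except for SHMT2, whose log2 change was 0.01 after the length and GC correction and without +Dox replicate 1 or 2, and 0.02 without -Dox replicate 1 (-0.06 to 0.02 over the leave-one-out fits). The genes called higher and lower numbered 0 and 0 with no filter on low values and 0 and 0 with a replicate block. After the length and GC correction they numbered 4 and 3, and with equal library totals or quantile normalization 2 and 3. When a library was left out they numbered 0 to 2 higher and 0 to 2 lower. Over the pathway lists 17 gene calls were higher and 9 lower, 4 and 3 with the replicate block, and 4 to 12 and 3 to 8 when a library was left out. Over all genes tested, 53 were higher and 100 lower with no filter, and 1291 and 1050 after the length and GC correction. They numbered 69 and 142 with the replicate block and 354 and 605 with plain empirical Bayes. When a library was left out, 76 to 412 were higher and 147 to 588 lower. CAPG stayed called throughout. The cause of these differences was not tested. Replicate numbers did not pair the libraries (correlations of same-numbered deviations -0.043, 0.009 and -0.023, and no library correlated best with its own number), so the block is given for completeness. At a depth of 14100000 to 18100000 fragments CBS was listed near 0, and no fold is given. Whether its values reflect the cells or the estimation was not tested.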
